A study of Mus musculus with 18 samples.

Results

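The 10 lectin-like genes described here lie on mouse chromosome 6, in the stretch known as the natural killer (NK) gene complex, and were followed through RNA-Seq of small intestinal crypts after the deletion of Prmt1, a protein arginine methyltransferase. They were taken by name from a table of 55335 genes: 4 Clec2 genes (Clec2j, Clec2h, Clec2d and Clec2e) and 6 Klr genes (Klrb1, Klrb1f, Klri1, Klrd1, Klrk1 and Klre1). The 10 were picked with their KO to WT values already known, so those values are given below as a description without a test. Tests are given for comparisons between WT groups and for genes outside the 10.

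The KO mice carried LoxP-flanked Prmt1 on both alleles together with Vil-CreERT2, and the WT mice were Prmt1 fl/fl littermates without Cre. Both genotypes received 2 mg tamoxifen per intraperitoneal injection. Crypts were collected at day 2 after 2 injections, and at days 7 and 14 after 5 injections, from mice of 8 to 12 weeks of age, with 3 mice and thus 3 libraries in each of the 6 groups. The villin promoter drives the recombinase in the gut epithelium, so lymphocytes that come along with the crypts are not its target. KO and WT mice differed in the transgene as well as in the deletion, and the strain background is not given in the sources used here. The loss of Prmt1, the transgene and any DNA inherited with it cannot be told apart in this design.

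NK gene complex genes code for C-type lectin-like proteins of the cell surface. NK cells and many T cells carry the Klr proteins as receptors, and the Clec2 proteins (also called Clr) are shown by neighbouring cells as ligands for the receptors of the Klrb1 (NKR-P1) branch, so that receptor and ligand genes sit side by side and are inherited together. In the gut, Clec2h (Clr-f) and Clec2e (Clr-a) are known as epithelial ligands, and intraepithelial lymphocytes, the T cells lodged between epithelial cells, carry several of the receptors.

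The libraries held between 12844642 and 31493484 counts, with a median of 21266804.5. Prmt1 was lower in KO than in WT, with KO means of 54.1% of the WT mean at day 2, 66.4% at day 7 and 60.9% at day 14, and the 3 KO libraries lay below the 3 WT libraries at each day. Esr1, whose ligand-binding part is fused to Cre in CreERT2, was higher in KO, between 2.74 and 6.47 CPM (counts scaled to library size) in the KO libraries and at most 0.680 CPM in the WT libraries. The epithelial identity of the crypts was checked with 9 epithelial markers, whose summed level ran from 5016 to 9414 CPM, against 129 to 374 CPM for 24 markers of intraepithelial lymphocytes. The NK cell receptor gene Ncr1 had at most 3 counts in any library.

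The starts of the epithelial ligand genes are shown first, since the sequence sets Clec2h and Clec2e apart from the other members. RefSeq windows of 250 bases before and 50 bases after the gene start (GRCm38.p6, the same assembly as mm10) were at hand for 8 of the 10 members. Capitals in the Clec2 sequences mark AAAGTCC, the core that HNF4 nuclear receptors bind, and TTTATNG, a core of CDX homeodomain factors, on either strand. These motifs were chosen after the sequences had been read. The windows lie at chr6:128662135-128662434 on the plus strand (Clec2h), chr6:129100854-129101153 on the minus strand (Clec2e) and chr6:129180365-129180664 on the plus strand (Clec2d), and all are given 5′ to 3′.
Clec2h: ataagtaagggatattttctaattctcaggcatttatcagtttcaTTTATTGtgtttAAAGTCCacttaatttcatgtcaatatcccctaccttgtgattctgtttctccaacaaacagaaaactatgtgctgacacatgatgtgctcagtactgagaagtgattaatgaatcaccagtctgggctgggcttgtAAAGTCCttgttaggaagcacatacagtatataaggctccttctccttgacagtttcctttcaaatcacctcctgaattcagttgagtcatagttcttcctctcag
Clec2e: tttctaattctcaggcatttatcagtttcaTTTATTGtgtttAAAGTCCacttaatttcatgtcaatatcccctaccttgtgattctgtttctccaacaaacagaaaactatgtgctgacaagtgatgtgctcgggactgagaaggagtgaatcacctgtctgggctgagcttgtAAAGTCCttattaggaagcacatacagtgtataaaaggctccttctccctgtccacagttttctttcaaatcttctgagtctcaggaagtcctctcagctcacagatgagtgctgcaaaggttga
Clec2d: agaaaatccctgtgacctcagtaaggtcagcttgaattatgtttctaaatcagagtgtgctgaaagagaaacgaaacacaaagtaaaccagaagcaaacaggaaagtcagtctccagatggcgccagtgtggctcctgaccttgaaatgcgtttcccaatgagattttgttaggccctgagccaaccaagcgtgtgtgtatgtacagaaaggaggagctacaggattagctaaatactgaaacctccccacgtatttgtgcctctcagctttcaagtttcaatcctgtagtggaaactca

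Clec2h and Clec2e shared an unbroken run of 121 identical bases, and 258 of the 300 bases (86%) were identical in an end-to-end alignment. Every other pair of the 8 members had between 57.3% and 65.3% identical bases and no shared run above 11 bases. The shared run holds TTTATTG followed by AAAGTCC, and a second AAAGTCC lies nearer to the start in both genes. Clec2d held neither motif. AAAGTCC was present in 4.21% of the 32851 promoter windows and TTTATNG in 10.9%, and 8 windows (0.0244%), Clec2h and Clec2e among them, had TTTATNG with at least 2 copies of AAAGTCC. The pair counts once here, because both windows carry the same stretch.

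**Figure D1:**
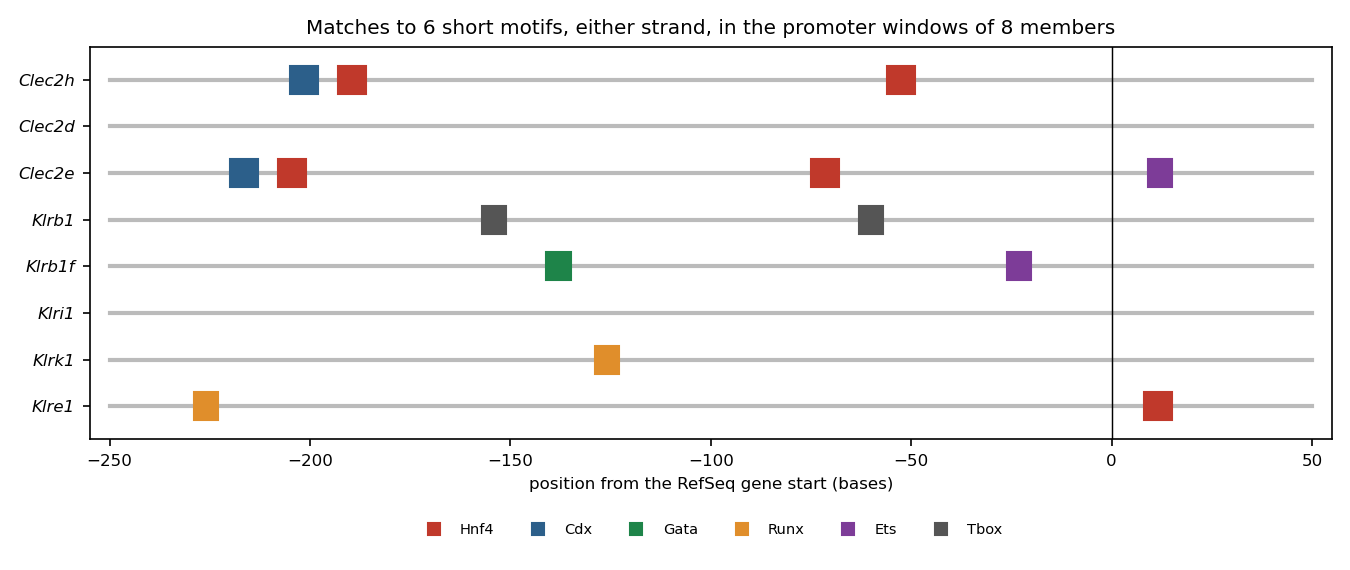
Positions of 6 short motifs (coloured boxes) in the windows of 8 members, with the distance from the RefSeq gene start in bases on the x axis and 1 line per gene; for Klre1 the first of 2 RefSeq windows is drawn. Clec2h and Clec2e share a CDX-type match and 2 HNF4-type matches in the same order, while Clec2d and Klri1 hold no match.

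On the receptor side the windows of Klrb1 (chr6:128723048-128723347, minus strand) and Klri1 (chr6:129717083-129717382, minus strand) are shown because the KO and WT libraries of these receptor genes lay apart at days 2 and 7. Capitals mark short cores of RUNX, ETS, T-box and GATA factors, which serve in lymphocytes, on either strand, and these too were chosen after the sequences had been read.
Klrb1: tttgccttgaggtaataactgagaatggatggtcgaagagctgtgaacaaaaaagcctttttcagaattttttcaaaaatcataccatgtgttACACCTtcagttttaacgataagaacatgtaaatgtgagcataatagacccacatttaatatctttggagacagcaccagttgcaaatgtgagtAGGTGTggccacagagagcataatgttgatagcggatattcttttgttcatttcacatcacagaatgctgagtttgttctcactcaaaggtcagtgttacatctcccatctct
Klri1: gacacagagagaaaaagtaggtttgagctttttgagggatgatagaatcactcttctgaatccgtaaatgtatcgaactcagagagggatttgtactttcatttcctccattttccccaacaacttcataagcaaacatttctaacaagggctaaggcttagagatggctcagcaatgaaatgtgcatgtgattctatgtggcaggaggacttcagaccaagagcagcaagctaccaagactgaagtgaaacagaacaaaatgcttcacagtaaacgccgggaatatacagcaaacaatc

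Klrb1 held the T-box core AGGTGT once on each strand, a motif found in 13.7% of all windows, and Klri1 held none of the 4 cores. The RUNX core TGTGGT, present in 16.8% of all windows, was found in Klrk1 and Klre1, and the ETS core GGAAGT (23.8%) in Klrb1f and Clec2e. The GATA core AGATAA (11.2%) was found in Klrb1f among the 8 members. Klre1 has 2 overlapping RefSeq windows, which share 1 AAAGTCC, at 9 from the start of the first and at −65 from that of the second, while TGTGGT was found in the first window. Klrb1 and its relative Klrb1f had 65.3% identical bases, the highest value after Clec2h and Clec2e.

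Levels were compared between genes as CPM per kilobase of exon. Clec2h stood first in every library, with a mean of 229 ± 66.5 CPM per kilobase (SD, n = 18) and a lowest value of 133 against a highest of 104 for Clec2d, the next gene. Clec2d had a mean of 74.3 ± 14.0 and lay above Clec2e (46.7 ± 16.2) in 17 of 18 libraries, although their ranges overlapped. A wide gap followed, since Clec2e never fell below 17.9 while Klrd1, the leading receptor gene, reached 4.31 at most. Klrd1 had a mean of 2.61 ± 0.939 CPM per kilobase, Clec2j 1.80 ± 1.30, Klri1 0.813 ± 0.647 and Klrb1 0.382 ± 0.339. The ranges of these 4 genes overlapped from each to the next, and their order differed between groups. Klrd1 lay above Clec2j in all 3 WT libraries of day 2 (means of 3.76 and 0.796 CPM per kilobase), whereas Clec2j lay above Klrd1 in 2 of 3 KO libraries of that day (3.85 and 3.12). Klre1 (0.101 ± 0.0664), Klrb1f (0.0755 ± 0.0623) and Klrk1 (0.0293 ± 0.0163) were the lowest over the 18 libraries and overlapped as well, although Klre1 (0.177) and Klrb1 (0.158) overlapped in WT at day 2. In a bulk sample fewer cells of a type and less RNA per cell cannot be told apart.

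**Figure D2:**
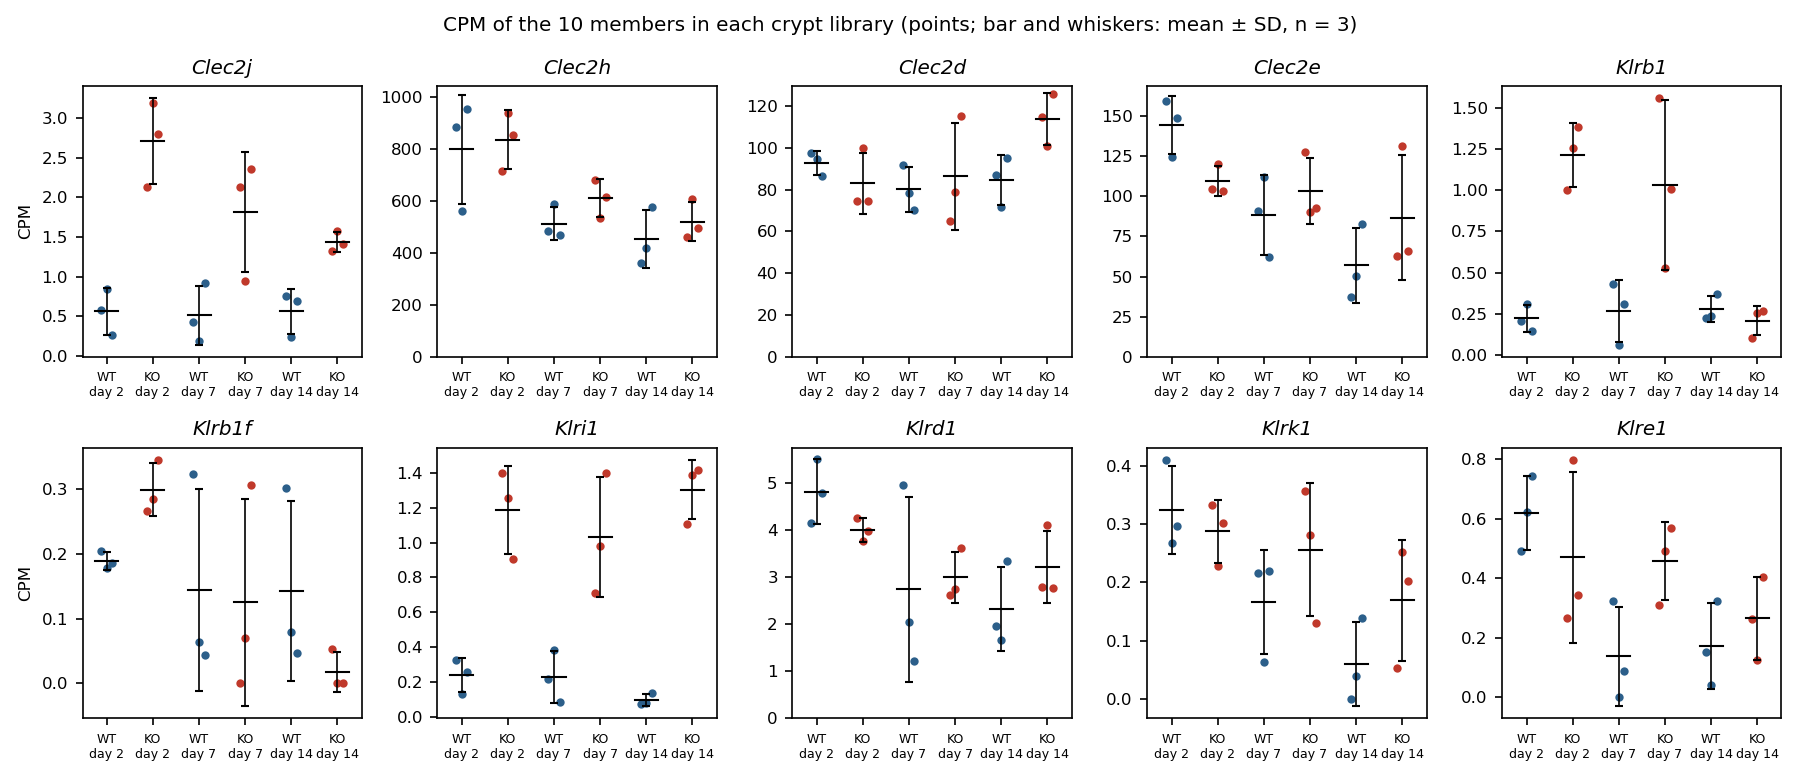
CPM (y axis, linear, scaled per gene) of the 10 members in the 18 libraries, with WT in blue and KO in red at days 2, 7 and 14; points are libraries, the bar is the mean and the whiskers are the SD of 3. At day 2 the KO points of Clec2j, Klrb1, Klrb1f and Klri1 lie above and those of Clec2e below the WT points, while Clec2h, between 362 and 953 CPM, overlaps at every day.

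Clec2h (ENSMUSG00000030364.6, chr6:128662385-128677374, plus strand) codes for Clr-f, the epithelial ligand of the receptor made from Klrb1. At day 2 the WT libraries held 881, 560 and 953 CPM and the KO libraries 715, 937 and 852 CPM. At day 7 they held 484, 586 and 466 CPM in WT and 681, 533 and 615 CPM in KO, and at day 14 362, 418 and 578 CPM in WT and 460, 605 and 494 CPM in KO. The genotypes overlapped at every day, with fitted log2 differences (KO minus WT) of 0.06 ± 0.21 (SE), 0.25 ± 0.21 and 0.20 ± 0.21. Over fits that each left out 1 library these ran from −0.14 to 0.21, 0.18 to 0.36 and 0.07 to 0.43. Within WT the mean went from 798 CPM at day 2 to 452 CPM at day 14, a log2 difference of −0.82 (SE 0.21) that missed the threshold by a little (adjusted p = 0.0517, quasi-likelihood test of edgeR, adjusted after Benjamini and Hochberg over 21349 genes). Over 8 other settings this adjusted p ran from 0.00213 to 0.163.

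Clec2e (ENSMUSG00000030155.7, chr6:129091998-129100913, minus strand), the gene for Clr-a, fell in WT crypts between day 2 and day 14. The WT libraries held 160, 124 and 149 CPM at day 2, 91.1, 112 and 61.8 CPM at day 7, and 37.5, 50.6 and 83.0 CPM at day 14. The day 14 libraries all lay below the day 2 libraries. The log2 difference between these days was −1.34 (SE 0.30, adjusted p = 0.0408), and Clec2e was the 1 member of 8 that passed the test in this comparison, in which 1.61% of all tested genes passed. The call was lost in 3 of 8 other settings, with adjusted p between 0.000623 and 0.0739 over the 8. It was also lost without WT day 14 replicate 1 (adjusted p = 0.157) or 2 (0.0737), or WT day 2 replicate 1 (0.147) or 3 (0.124). From day 2 to day 7 no member passed (0.553% of all genes did), with Clec2e at −0.71 (SE 0.30, adjusted p = 0.177) and Clec2h at −0.64 (SE 0.21, adjusted p = 0.0996), and none passed from day 7 to day 14 (0.0796% of all genes). At an unadjusted p under 0.05 the table of all genes held 4792 genes for day 7 against day 2 and 1105 for day 14 against day 7.

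Between the genotypes Clec2e held 104, 120 and 103 CPM in the KO libraries of day 2, all below the WT libraries of that day. The KO libraries of day 7 held 127, 90.1 and 92.6 CPM and those of day 14 held 62.7, 131 and 65.7 CPM, and both sets overlapped with WT. The fitted log2 differences were −0.40 ± 0.30 (SE), 0.23 ± 0.30 and 0.60 ± 0.30 in the order of days, and over fits that each left out 1 library the value of day 7 ran from 0.03 to 0.43. That of day 14 was 0.18 without KO replicate 2 and 0.98 without WT replicate 3.

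Clec2d (ENSMUSG00000030157.5, chr6:129180615-129186534, plus strand) codes for Clr-b, a ligand found on many cell types and read by the inhibitory receptor NKR-P1B. It held 97.7, 94.7 and 86.4 CPM in the WT libraries and 74.8, 99.7 and 74.5 CPM in the KO libraries of day 2. At day 7 WT held 91.7, 78.6 and 70.2 CPM and KO 65.1, 78.8 and 115 CPM. At day 14 the KO libraries (115, 101 and 126 CPM) lay above the WT libraries (86.9, 71.9 and 95.1 CPM), with a log2 difference of 0.43 ± 0.18 (SE). From day 2 to day 14 in WT its log2 difference was −0.13 (SE 0.18, adjusted p = 0.720).

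Clec2h and Clec2e went up and down together across the libraries, as Pearson's r of their log2 CPM was 0.84 over the 18 libraries and 0.78 after the group means had been subtracted, while Clec2h and Clec2d had r = −0.04 and 0.04. Genes most like Clec2h included Jak2 (r = 0.95), Fam118a (0.94), Dpp4 (0.94), which codes for a brush border peptidase, and Myzap (0.94). With group means subtracted they were Dpp4 (0.93), Jak2 (0.92), Mcoln3 (0.92), Eps8l3 (0.91) and Hsd17b11 (0.91). These are descriptions over libraries that share treatment and depth. In WT, Dpp4 fell by 1.01 on the log2 scale from day 2 to day 14 (SE 0.22, adjusted p = 0.0335). Dpp4 was picked for its likeness to Clec2h over these same libraries, so this value is no separate evidence. Of 10 enterocyte markers 2 were called lower in this comparison, Slc5a1 and Fabp2, against 1.61% of all tested genes called. At an unadjusted p under 0.05 there were 9 of the 10, against 20% of all tested genes. The median over the 10 was −1.20 against 0.01 over all tested genes. The part of cell composition in the Clec2h and Clec2e values was not tested.

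**Figure D3:**
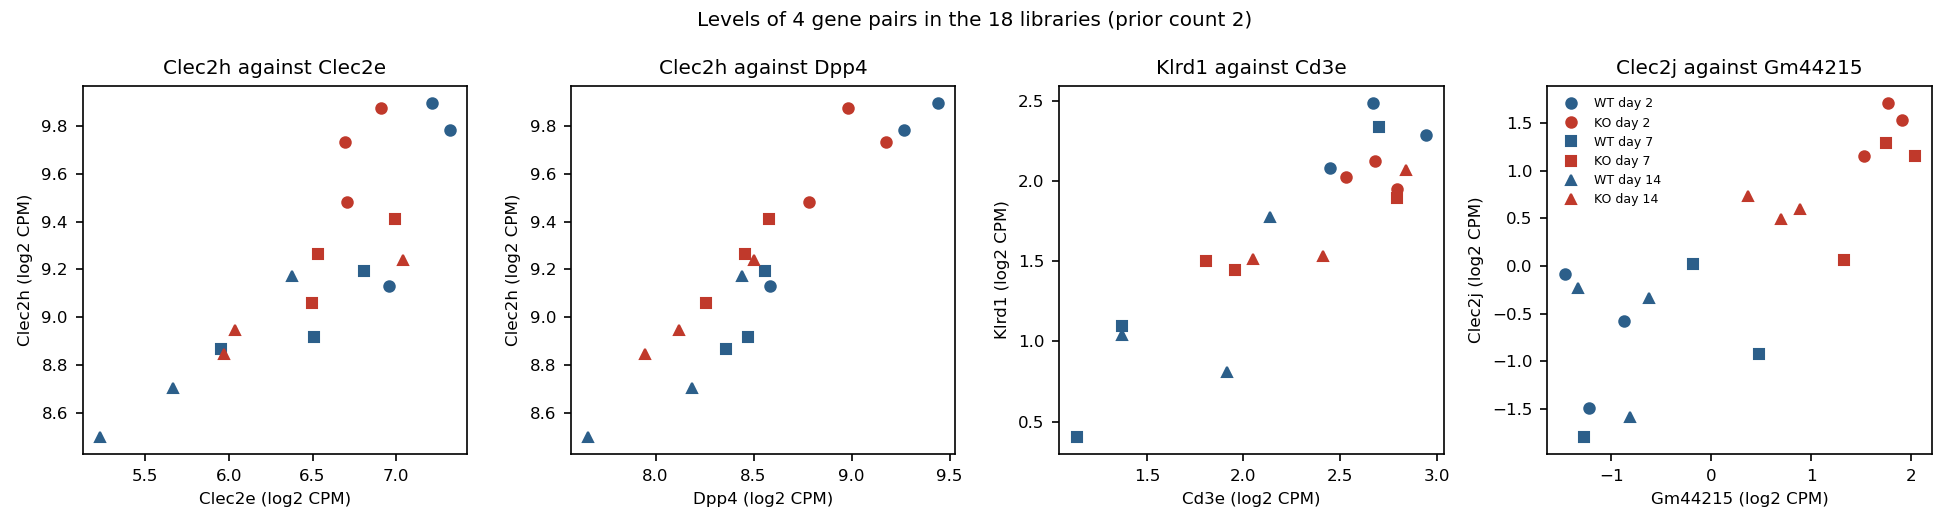
Each panel plots the log2 CPM (prior count 2) of 2 genes in the 18 libraries, with WT in blue, KO in red and a marker shape per day. Clec2h follows Clec2e (r = 0.84) and Dpp4 (0.94), Klrd1 follows the T cell gene Cd3e (0.89), and Clec2j against Gm44215 (0.82) splits into a WT and a KO cloud. With group means subtracted, r was 0.78, 0.93, 0.83 and 0.33 in the same order.

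Clec2j (ENSMUSG00000030363.8, chr6:128652416-128661820, minus strand) lies head to head with Clec2h, with 564 bases between the 5′ ends of the gene spans, and both GENCODE and RefSeq class it as a pseudogene. At day 2 the WT libraries held 14, 19 and 7 counts and the KO libraries 32, 56 and 65 counts, which is 0.574, 0.845 and 0.260 CPM against 2.13, 3.20 and 2.80 CPM. At day 7 WT held 0.432, 0.192 and 0.920 CPM and KO 2.13, 0.948 and 2.36 CPM, and at day 14 WT held 0.755, 0.237 and 0.695 CPM and KO 1.32, 1.58 and 1.42 CPM. Each KO library lay above the WT libraries of its day. The KO to WT ratio of means was 4.84 at day 2, 3.53 at day 7 and 2.55 at day 14, with fitted log2 differences of 2.29 ± 0.47 (SE), 1.74 ± 0.48 and 1.41 ± 0.51, of which that of day 7 was 2.41 without WT day 7 replicate 3. Between WT days 2 and 14 its log2 difference was −0.04 (SE 0.54, adjusted p = 0.977).

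Clec2j resembles its functional relatives, so its counts are uncertain. The longest transcript aligned to Clec2d over 415 bases at 94% identity and to Clec2g over 409 bases at 94.1%, and reads that align equally well to several places had not been counted. Clec2d overlapped between the genotypes at day 2, as did Clec2h, the next gene on the chromosome.

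Klrb1 (ENSMUSG00000079299.3, chr6:128705836-128723059, minus strand) codes for NKR-P1G, a receptor of Clr-f, and lies 28461 bases past the end of its ligand gene Clec2h. At day 2 the WT libraries held 5, 7 and 4 counts and the KO libraries 15, 22 and 32 counts. At day 7 they held 12, 1 and 7 counts in WT and 35, 15 and 23 counts in KO, and at day 14 the values were 3, 6 and 8 counts in WT against 2, 4 and 4 counts in KO. The KO libraries thus lay above WT at days 2 and 7 and within or below the WT range at day 14. In CPM the KO mean was 1.21 ± 0.195 (SD, n = 3) at day 2, 1.03 ± 0.515 at day 7 and 0.209 ± 0.0903 at day 14, against WT means of 0.222 ± 0.0827, 0.267 ± 0.187 and 0.278 ± 0.0804. The fitted log2 differences were 2.45 ± 0.49 (SE), 1.79 ± 0.48 and −0.46 ± 0.64.

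Klrb1f (ENSMUSG00000030154.10, chr6:129045901-129057464, plus strand), which codes for the related receptor NKR-P1F, had at most 9 counts in a library and did not pass the filter on low counts. Its KO libraries of day 2 held 4, 5 and 8 counts and the WT libraries 5, 4 and 5 counts, a ratio per depth of 1.61 with an exact 95% counting interval from 0.746 to 3.52. In CPM these KO libraries lay above the WT libraries. At day 14 KO held 1, 0 and 0 counts and WT 4, 2 and 1 counts. The longest transcript of Klrb1f aligned to Klrb1 over 658 bases at 82.7% identity.

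Klri1 (ENSMUSG00000067610.1, chr6:129697218-129717132, minus strand) codes for an inhibitory receptor that pairs with the product of Klre1. Its KO libraries lay above WT at each day. The KO libraries held 21, 22 and 21 counts at day 2, 16, 28 and 32 at day 7, and 21, 22 and 21 at day 14. The WT libraries held 8, 3 and 7 counts at day 2, 6, 6 and 2 at day 7, and 1, 2 and 3 at day 14. The highest WT library had 8 counts and the lowest KO library 16. KO means were 1.19 ± 0.253, 1.03 ± 0.345 and 1.30 ± 0.171 CPM (SD, n = 3) and WT means 0.240 ± 0.0987, 0.229 ± 0.148 and 0.0978 ± 0.0357 CPM. The ratio of summed counts per depth was 4.71 at day 2 (exact 95% counting interval 2.76 to 8.44), 4.87 at day 7 (2.73 to 9.33) and 12.9 at day 14 (5.62 to 36.5), and these intervals cover counting error only. Fitted log2 differences were 2.25 ± 0.42 (SE), 2.23 ± 0.43 and 3.63 ± 0.50, of which the last rests on 6 WT counts. Its relative Klri2 aligned over 536 bases at 91.6% identity and had too few counts to be tested.

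Klre1 (ENSMUSG00000050241.8, chr6:129577905-129585827, plus strand), the partner gene of Klri1, did not share this pattern. It held 12, 14 and 20 counts in WT and 4, 14 and 8 counts in KO at day 2, then 9, 0 and 2 against 7, 14 and 13 at day 7, and 2, 1 and 7 against 5, 2 and 6 at day 14. The genotypes overlapped at each day, with log2 differences of −0.40 ± 0.58 (SE), 1.49 ± 0.68 and 0.63 ± 0.79. Without WT day 7 replicate 1 the value of day 7 was 3.02, and that of day 14 was 1.66 or 0.05 when WT replicate 3 or WT replicate 2 of that day was left out. That of day 2 was −0.98 or −0.15 when KO replicate 2 or KO replicate 1 was left out. Within WT the log2 difference of Klre1 from day 2 was −1.93 (SE 0.66, adjusted p = 0.105) at day 7. At day 14 it was −1.85 (SE 0.67, adjusted p = 0.135).

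Klrd1 (ENSMUSG00000030165.16, chr6:129591782-129598775, plus strand) codes for CD94, which joins NKG2 chains to read the class Ib molecule Qa-1. It made up a median of 65.4% of the summed CPM of the 6 Klr members. The WT libraries held 4.14, 5.52 and 4.79 CPM at day 2, 4.97, 2.04 and 1.23 at day 7, and 1.96, 1.66 and 3.34 at day 14. The KO libraries held 4.26, 3.77 and 3.97 CPM, then 2.62, 2.74 and 3.62, and 2.79, 4.10 and 2.77. The genotypes overlapped at each day, with log2 differences of −0.27 ± 0.35 (SE), 0.10 ± 0.36 and 0.47 ± 0.38. The day 7 value was 0.90 or −0.26 when WT replicate 1 or WT replicate 3 of that day was left out, and that of day 14 was 0.85 or 0.25 when WT replicate 3 or WT replicate 2 was left out. In WT the log2 difference from day 2 to day 14 was −1.05 (SE 0.36, adjusted p = 0.120), which passed in 1 of 8 other settings (adjusted p = 0.0179 without the filter on low counts, and up to 0.148 over the 8). The 24 markers of intraepithelial lymphocytes had a median of −0.84 in this comparison, with 1 of them above 0, against 0.01 over all tested genes. None of the 24 was called (1.61% of all tested genes were), and 14 had an unadjusted p under 0.05, against 20% of all tested genes. The part of lymphocyte number in the Klrd1 value was not tested. Klrk1 (ENSMUSG00000030149.15, chr6:129610323-129623864, minus strand), the gene for the activating receptor NKG2D, had at most 10 counts in a library and overlapped between the genotypes throughout.

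Klrd1 tracked T cell genes. The genes most like it over the 18 libraries were Gimap4 (r = 0.93), a GTPase gene of lymphocytes, Ikzf2 (0.91), Cd8a (0.90) and Cd3e (0.89), both T cell genes, and Gm43434 (0.89). With group means subtracted, Gimap4 and Ikzf2 stayed among the first 5, beside Apol7e (0.91), St8sia4 (0.89) and Cd200r1 (0.88), and Cd8a and Cd3e had r = 0.84 and 0.83. Klrd1 also had r = 0.68 with Clec2e and 0.59 with Clec2h, which became 0.47 and 0.16 after that subtraction. Clec2h had r = 0.63 with Cd8a and 0.70 with the lymphocyte gene Gzma, which became 0.21 and 0.33. Klri1 had r = 0.48 with Cd8a and 0.44 with Cd3e before and 0.33 and 0.32 after that subtraction, and Clec2j had r = 0.33 and 0.32 before and −0.13 and −0.02 after.

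**Figure D4:**
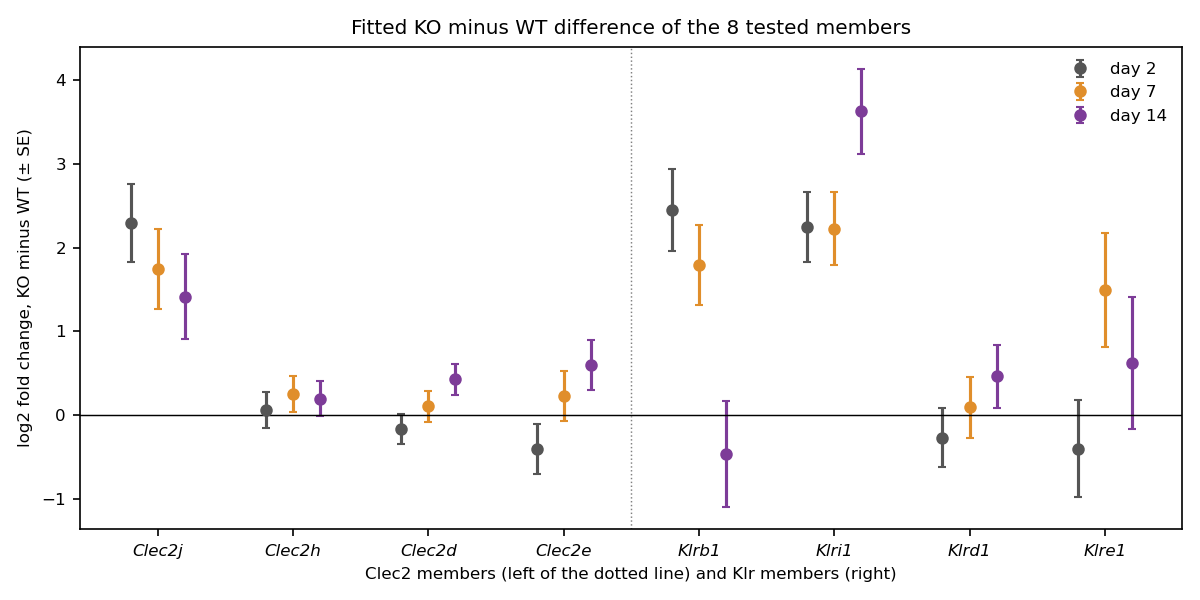
Fitted log2 difference between KO and WT (y axis, ± SE, 3 libraries per group) at days 2, 7 and 14 for the 8 members that passed the filter on low counts. Clec2j, Klrb1 and Klri1 stand above 2 at day 2, and Klrb1 is at −0.46 at day 14, while the other 5 lie between −0.40 and 0.06 at day 2.

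The libraries of the genotypes did not overlap for 4 of the 8 at day 2 (8.16% over the whole table), 3 at day 7 (33.6%) and 3 at day 14 (26.5%). Since the 10 genes were picked on these contrasts, nothing is read from these shares, and no count of members past the threshold is given between the genotypes.

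Summed over the 4 Clec2 members, the KO mean was 1030 ± 132 CPM against 1036 ± 223 CPM in WT at day 2 (SD, n = 3), 801 ± 88.8 against 681 ± 89.6 CPM at day 7, and 721 ± 104 against 594 ± 143 CPM at day 14, which are log2 ratios of −0.01, 0.23 and 0.28. Clec2h gave between 71.8% and 82.5% of that sum. The ratio of day 14 was 0.15 without WT replicate 1 and 0.49 without WT replicate 3, and that of day 2 ran from −0.18 to 0.10 when WT replicate 2 or WT replicate 3 was left out. For the 10 enterocyte markers the summed level ran from 18156 to 22794 CPM in KO and 13522 to 30843 CPM in WT at day 2, from 14695 to 22347 and from 9950 to 12619 CPM at day 7, and from 11372 to 21602 and from 4791 to 12678 CPM at day 14. Of the 10, 2 were called higher (Fabp1 and Fabp2) and 1 lower (Lct) at day 7, and 1 higher (Sis) at day 14, against 17.3% and 7.92% of all tested genes. Their median log2 differences were −0.11, 0.66 and 0.81 in the order of days, and the median over all tested genes was at most 0.02. The part of enterocyte content in the Clec2 sums was not tested. Summed over the 6 Klr members, KO had 7.45 ± 0.180 CPM against 6.41 ± 0.624 CPM in WT at day 2, 5.89 ± 1.01 against 3.69 ± 2.44 CPM at day 7, and 5.18 ± 0.879 against 3.07 ± 1.15 CPM at day 14, log2 ratios of 0.22, 0.68 and 0.76. With Klrb1 and Klri1 left out, a choice made after their values were seen, the receptor sum at day 2 was 5.05 (KO) against 5.95 CPM (WT), and its log2 ratio turned to −0.24, and the ratios of days 7 and 14 became 0.26 and 0.45. That of day 7 was 1.03 without WT replicate 1 and −0.06 without WT replicate 3, and that of day 14 was 0.23 without WT replicate 2 and 0.79 without WT replicate 3. The Clec2 ratios without Clec2h were −0.29, 0.18 and 0.51 in the order of days. The receptor sum of day 7 leaned on WT replicate 1, without which the log2 ratio was 1.36, and that of day 14 ran from 0.55 to 1.10 when 1 library was left out.

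Markers of intraepithelial lymphocytes did not pass the test at any day: 0 of 24 were called at days 2, 7 and 14, against 0.0328%, 17.3% and 7.92% of all tested genes. At an unadjusted p under 0.05 there were 0, 2 and 6 of the 24, against 3.33%, 29.9% and 21.6% of all tested genes, and the median log2 differences were 0.11, 0.12 and 0.61. Markers above 0 numbered 17, 14 and 22 of the 24 in the order of days. Their summed level ran from 319 to 374 CPM in KO and 268 to 367 CPM in WT at day 2, from 166 to 254 and from 129 to 301 CPM at day 7, and from 206 to 334 and from 142 to 206 CPM at day 14. Of 7 NK cell and ILC1 markers 5 were tested and 0 called at any day, with 0, 0 and 1 at an unadjusted p under 0.05. Those above 0 numbered 4, 3 and 5 in the order of days, with medians of 0.28, 0.08 and 0.67. Gzma, a granule protease gene of cytotoxic lymphocytes and one of the most abundant of these markers, had a log2 difference of 0.36 (SE 0.29, adjusted p = 0.999) at day 2, 0.00 (SE 0.29, adjusted p = 0.999) at day 7 and 0.85 (SE 0.30, adjusted p = 0.0942) at day 14. The part of lymphocyte number in the Klr values was not tested.

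The molecules that the receptors read or signal through were followed as a list of 18 genes, 12 of them tested. At day 2 none was called, and 0 had an unadjusted p under 0.05, against 0.0328% and 3.33% of all tested genes. At day 7 there were 3 calls among the 12, against 17.3% of all tested genes. H2-K1 (log2 difference 0.86, SE 0.26, adjusted p = 0.0295) and H2-D1 (0.72, SE 0.24, adjusted p = 0.0455), classical class I genes read by other Klr receptors, were higher in KO, and Hcst, which codes for the DAP10 adaptor of NKG2D, was lower (−1.26, SE 0.38, adjusted p = 0.0284). Of the 6 fits that each left out 1 library, Hcst was called in 2, without KO replicate 2 or WT replicate 3, with adjusted p up to 0.131, and its call was also lost with only the groups compared (adjusted p = 0.0629). H2-K1 was called in 2 (without KO replicate 2 or 3, adjusted p up to 0.156) and H2-D1 in 1 (without KO replicate 3, adjusted p up to 0.204). At day 14 none of the 12 was called, and 0 had an unadjusted p under 0.05, against 7.92% and 21.6% of all tested genes. Ulbp1, a ligand of NKG2D, had 1.96 CPM in WT at day 7 and a log2 difference of −0.67 (SE 0.39, adjusted p = 0.273). Within WT, B2m (−1.05, SE 0.24, adjusted p = 0.0371), the shared light chain of class I molecules, and H2-T23 (−0.93, SE 0.23, adjusted p = 0.0453), the gene for Qa-1 that CD94 reads, fell from day 2 to day 14, as Clec2e did. These were 2 of the 12, against 1.61% of all tested genes. B2m was also lower at day 7 than at day 2 (−1.37, SE 0.24, adjusted p = 0.0345), the 1 call among the 12 there, against 0.553% of all tested genes.

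The table names 28 more Clec2 and Klr genes, of which 4 had enough counts to be tested and 24 had at most 15 counts in every library. Klrg2, which lies outside the cluster on the same chromosome, was called in KO at day 7 (log2 difference 1.02, SE 0.27, adjusted p = 0.0138) and day 14 (1.14, SE 0.28, adjusted p = 0.0140) and was at −0.02 (SE 0.30, adjusted p = 0.999) at day 2. The difference between its day 7 and day 2 effects did not pass the test (1.04, SE 0.41, adjusted p = 0.169). Its KO libraries held 4.62, 5.02 and 6.90 CPM at day 7 and 7.01, 6.88 and 5.46 CPM at day 14, above 3.06, 1.66 and 3.28 CPM and 2.49, 2.41 and 3.85 CPM in WT. The call was lost without WT replicate 2 at day 7 (adjusted p = 0.0678), and at day 14 without KO replicate 1, WT replicate 1 or WT replicate 2. Klra5, a receptor gene of the Ly49 family past the far end of the row, had log2 differences of 1.52 (SE 0.59, adjusted p = 0.999), 1.37 (SE 0.69, adjusted p = 0.192) and 1.48 (SE 0.65, adjusted p = 0.186). The day 7 value was 1.00 or 2.00 when WT replicate 3 or WT replicate 1 of that day was left out. The day 14 value rested on KO day 14 replicate 2, which held 30 counts against 4 and 9 in the other KO libraries. It was 0.34 without that library (adjusted p = 0.861) and 2.48 without WT replicate 3. Clec2i and Clec2g, which lie between Klrb1 and Klrb1f, were between −0.44 and 0.26 at all days and were not called.

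The genes around the members were examined to see how far the day 2 difference reached along the chromosome. From 1 Mb before the lowest coordinate of the first member to 1 Mb past that of the last (chr6:127652416-130697218), 34 other genes were tested. This window was set around members picked on their KO to WT values, so nothing is read from its shares at any day. At day 2, 1 of the 34 was called (2.94%, against 0.0328% over the whole table). This was Gm44215, an unclassified transcript between Clec2h and Klrb1, with 11, 6 and 9 counts in WT and 42, 58 and 85 counts in KO and a log2 difference of 3.19 (SE 0.37, adjusted p = 0.000408). At day 7 it held 36, 5 and 18 against 90, 69 and 75 counts (1.93, SE 0.34, adjusted p = 0.000584), and at day 14 it held 4, 12 and 12 against 29, 19 and 26 counts (1.69, SE 0.39, adjusted p = 0.0106), and it was called in each fit that left out 1 library.

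A log2 difference above 1 at day 2 was seen for 6 of the 34 (0.852% over the whole table), of which Gm44215 was the 1 called. Besides Gm44215 these were Gm44420 (1.98) and Gm44216 (2.86), processed pseudogenes on either side of the lower end of Clec2j (−3.84 and 5.69 kb, by lower coordinates), Gm15987 (2.30) and BC064078 (1.55) before Klrb1f, and Klra5. Gm15987 is annotated as antisense, and the counts do not use strand, so its reads cannot be told apart from those of a gene on the other strand. Gm44216 lies inside the span of Clec2j with no exon in common, and no member shared an exon with another gene. Between them lay Clec2h, Clec2i, Clec2g, Clec2e and Clec2d, whose day 2 values were −0.40 to 0.06. Gm47861, in the same stretch, was at −1.27 (SE 0.50), with its KO libraries below the WT libraries at day 2. BC064078 was at −0.43 and −0.91 at days 7 and 14, and Klrb1 at 1.79 and −0.46, while Gm44215, Gm44420, Clec2j and Klri1 had KO libraries above WT at all 3 days. The BC064078 libraries overlapped at days 7 and 14, and its value of day 14 was −0.11 without WT replicate 3. At day 2 Gm44420 was at 3.59 without WT replicate 2, and Gm47861 at −2.04 without KO replicate 2. Gm44216, at most 0.383 CPM in a WT library, passed the filter on low counts through its KO libraries. The share of 6 in 34 is therefore a description only.

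At days 7 and 14 the calls were 4 of 34 (11.8%, against 17.3% of all) and 6 of 34 (17.6%, against 7.92%). Without KO day 7 replicate 1 the count of day 7 was 2, and that of day 14 was 1 without KO day 14 replicate 2, 3 without KO day 14 replicate 3 and 2 without WT day 14 replicate 1. Gm156, between Klri1 and Klra5, had 17 to 22 counts in KO and 2 to 10 in WT at day 7 (adjusted p = 0.0323), and was higher in KO at day 14 as well (1.97, SE 0.52, adjusted p = 0.0240). Of the 6 fits that each left out 1 library, it was called at day 7 in 1, without WT replicate 1 (adjusted p up to 0.109), and at day 14 in 3, the call being lost without KO replicate 2, WT replicate 1 or WT replicate 3. Foxm1, a regulator of mitotic genes, was lower at day 7 (−0.48, adjusted p = 0.0274) and day 14 (−0.66, adjusted p = 0.00834), as was the pseudogene Stambp-ps1 (−2.40, adjusted p = 0.00785, and −2.24, adjusted p = 0.0186), both ahead of the cluster. The day 7 call of Foxm1 was made in 2 of these 6 fits, without KO replicate 3 or WT replicate 2, and was lost with only the groups compared (adjusted p = 0.0644), and its day 14 call was lost without KO replicate 2 (0.0612). Stambp-ps1 was called in all 6 at day 7 and in 3 of 6 at day 14. Tspan9 (1.09, adjusted p = 0.0214) and Rhno1 (−0.61, adjusted p = 0.0200) were called at day 14 and not at day 7. The day 14 calls of Stambp-ps1 and Rhno1 were lost without KO replicate 2, KO replicate 3 or WT replicate 1, and that of Tspan9 without any 1 of these, without WT replicate 2 or with only the groups compared (adjusted p = 0.0518). No gene of the table passed the test of a difference in effect between these days by edgeR, and 953 had an unadjusted p under 0.05.

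**Figure D5:**
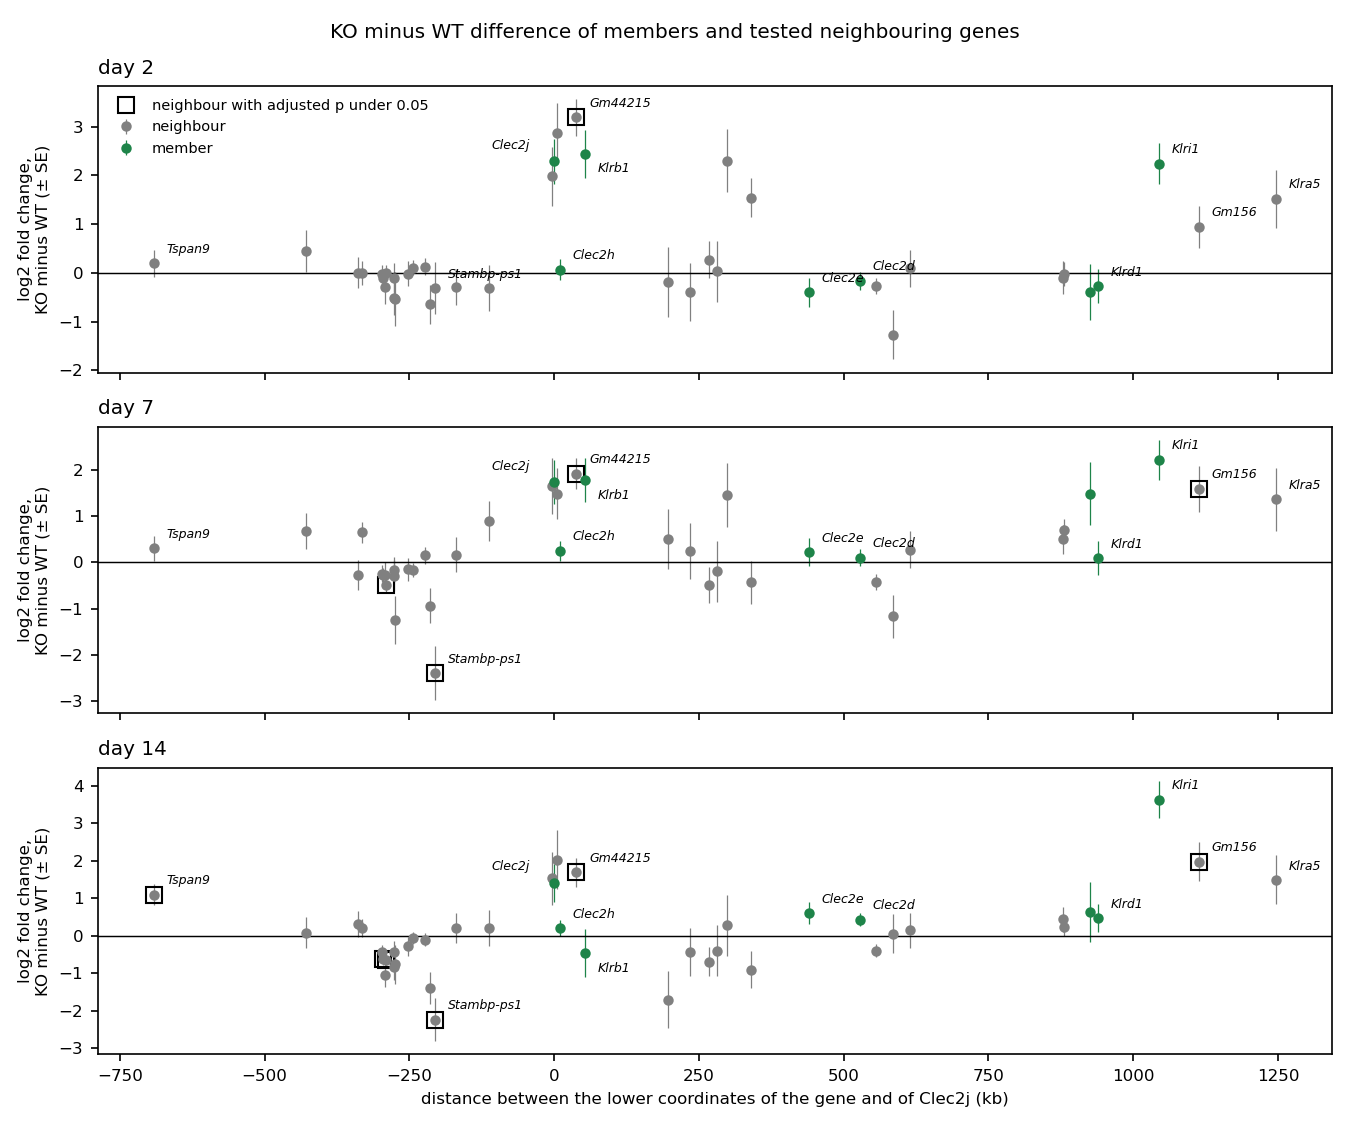
Log2 difference between KO and WT (y axis, ± SE) against the distance in kb between the lower coordinates of each gene and of Clec2j (x axis), for 8 members in green and 34 neighbouring genes in grey, with 1 panel per day; squares mark neighbouring genes with an adjusted p under 0.05. At day 2 high points sit near 0 kb (Clec2j, Gm44215, Klrb1), in the middle (Gm15987 at 299 kb, BC064078 at 341 kb) and at the far right (Klri1 at 1045 kb, Klra5 at 1247 kb), with Clec2h, Clec2e, Clec2d and Klrd1 nearer to 0 on the y axis.

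The genes most like Clec2j over the 18 libraries were its neighbour Gm44420 (r = 0.87), Esr1 (0.86), the processed pseudogene Gm13394 on chromosome 2 (0.83), Gm44215 (0.82) and Gm45063 (0.82), a processed pseudogene at 132462502 on chromosome 6. Those most like Klri1 were Gm13394 (0.91), Mbl2 on chromosome 19 (0.90), Gm44958 at 131291603 on chromosome 6 (0.89), Gm45063 (0.89) and Zfp37 on chromosome 4 (0.88). Clec2j and Klri1 had r = 0.70 with each other and −0.44 once group means were subtracted. Clec2j and Gm44215 went from 0.82 to 0.33 on that subtraction, and Klri1 and Gm44215 from 0.79 to −0.23. Both members were picked on their KO to WT values, so r over the 18 libraries carries that split and nothing is read from it. After that subtraction the closest genes of Clec2j were Gm40309 (0.91), Gm37195 (0.89), Zcchc4 (0.89), Evi2 (0.88) and Gm37949 (0.87), and those of Klri1 were Ppp1r14c (0.84), Crebrf (0.82), Fam49a (0.81), D630003M21Rik (0.80) and Ulk2 (0.80).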

How the data were processed

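Crypt RNA of 18 mice was sequenced after ribosomal depletion as 100 bp paired-end reads. Per the labels and the study's methods, the authors aligned reads with STAR 2.7.3 and deposited raw counts per gene from featureCounts 1.6.4, without strand, with fragments over several genes counted for each and multiply aligned fragments not counted. The file header names GENCODE release 23 for mouse (mm10), the methods release 26, and positions are those of the file. The members and the gene lists were chosen with earlier results of these data known.

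Here 20 genes that the study linked to sex were left out, filterByExpr kept 21349 genes, and counts were normalised by TMM and fitted with edgeR 4.0.16 (quasi-likelihood, robust, limma 3.58.1, R 4.3.3) with 1 mean per group over the 18 libraries. Adjusted p-values are Benjamini-Hochberg over all tested genes, with a threshold of 0.05. They measure the spread between 3 mice per group, and WT libraries also serve as the controls of KO. CPM use TMM library sizes, and log2 CPM for likeness a prior count of 2. Counting intervals are exact (Clopper-Pearson, scipy 1.17.1) and cover counting error only. The named genes were all members, Prmt1, Esr1, the genes called between the genotypes among other Clec2 and Klr genes and among partners and ligands (at most the 5 largest log2 differences per list and day) or neighbours (at most the 5 lowest adjusted p per day), the 5 genes most like Clec2j, Clec2h, Klri1 and Klrd1, and abundant or absent markers. Other genes named were chosen after their values were seen. Among the genes most like Clec2h, 1 is not reported here. Other lectins of the complex (8 genes, 1 tested), B and plasma cell (9 of 9 tested) and myeloid markers (8 of 9 tested) gave 0 calls between the genotypes at any day. Stromal and endothelial markers gave 2 calls at day 7 (Pecam1 and Vim, higher), epithelial markers 1 (Cdx1, lower), enterocyte markers 3 at day 7 (2 higher, 1 lower) and 1 at day 14 (higher), and the 12 enteroendocrine markers 12 at days 7 and 14 each.

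Sequences were taken from RefSeq (GRCm38.p6), and transcripts of GENCODE release 21 were compared by blastn. Same-numbered KO and WT libraries deviated together at day 14, with correlations of 0.2268, 0.1795 and 0.1595, and not in all pairs of the other comparisons. The replicate block changed no day 14 call between the genotypes of Klrg2 or of the neighbouring genes named above. Alternatives were the Wald test and size factors of DESeq2 1.42.0, all genes kept whatever their counts, a minimum mean count of 10, the sex-linked genes kept, only the groups compared, a replicate block, the 20 most abundant genes left out, and each library left out.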

Additional observations from a re-analysis of the deposited data

How the results depend on the processing

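Member values between the genotypes moved by less than the replicate SD in all 186 refits with another setting and in 138 of 144 refits without 1 library. Members called in WT at day 7 against day 2 numbered 1 with DESeq2's Wald test (Clec2h) and 2 without the filter (Clec2h and Klre1), and 0 to 1 without 1 library. For day 14 against day 2 they numbered 2 with the Wald test or a mean count of at least 10 (Clec2e and Clec2h) and without the filter (Clec2h and Klrd1), 0 with only the groups compared or with the replicate block, and 0 to 2 without 1 library. The replicate numbers were not shown to pair WT days. Other Clec2 and Klr genes called (Klrg2, outside the cluster) numbered 0 to 1 without 1 library at days 7 and 14. Neighbouring genes called numbered 3 without the filter at day 2, 2 to 6 without 1 library at day 7 and 1 to 7 at day 14. The Clec2 log2 ratio of day 2 was −0.29 without Clec2h, and that of the Klr sum −0.24 without Klrb1 and Klri1, both added after seeing the data. Without 1 library the Klr ratio of day 7 ran from 0.37 to 1.36. With a prior count of 0.5 the closest genes of Clec2h and Klrd1 were the same, and Gm48611 replaced Gm44215 for Clec2j. With group means subtracted, Gm19078 replaced Gm37949 for Clec2j, and Mbl2 and Gm4895 replaced D630003M21Rik and Ulk2 for Klri1. Counts of about 10 or fewer in most libraries limit Klrb1f, Klrk1, Klre1 and the WT values of Klri1 and Klrb1, as well as the KO values of Klrb1 at day 14.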
